A study of Saccharomyces cerevisiae with 10 samples.

Results

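The DNA replication machinery of Saccharomyces cerevisiae was examined through 51 genes, chosen by name from the 7252 genes of the deposited tables. The list covers origin recognition and licensing, the MCM helicase and its partners, firing factors, the replicative polymerases, the sliding clamp and its loaders, single-strand binding protein, Okazaki fragment maturation, fork protection and topoisomerases. All 51 genes were found and all 51 passed the filter on low counts. POL30, at 0 counts in every low library, passed it through the high libraries alone. Their fitted levels were lower in the low than in the high subpopulation for 44 of the 51 (86.3%), against 52.9% of all genes tested. In the libraries the study used 7 passed the test, all of them lower in low (13.7%, against 4.33% of genes). None passed as higher, which was also rare among all genes (54 of 6492). With the replicate codes of these libraries as a block, 0 members passed.

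The data are RNA sequencing of cells sorted from cultures of a prototrophic version of BY4741, a laboratory strain of mating type a, carrying sfGFP under the RPL28 promoter as a marker of growth. Every culture was grown in rich medium (YPD), washed in PBS and held for 1 h in nitrogen-limited medium with 0.8 mM proline (NLIM-PRO), so that low and high share strain, treatment and time and there is no unshifted control. The low subpopulation is the fraction with weak GFP and small side scatter and the high subpopulation the fraction with strong GFP and large side scatter, with 5 libraries of each that the series describes as biological replicates. Of the low libraries the study left out 2, L2_2609 and L1_2709, after a principal component analysis, which gives a comparison of 8 libraries (3 low, 5 high) as well as 1 of all 10. Doublets and budding cells were gated out before collection, according to the methods. Yet for fractions sorted after a longer downshift the paper describes high as rich in dividing mothers and low as mainly daughters without bud scars. It also reports genes of cytokinesis and mitotic exit as higher in high in these RNA data. How far the gate limited the cell cycle positions in either fraction was not tested. In such bulk fractions fewer cells with a transcript and less of it per cell cannot be told apart.

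In budding yeast, the origin recognition complex (ORC) marks origins and, with Cdc6, loads the MCM helicase in G1. The Dbf4-dependent kinase (DDK) and the firing factors then bring Cdc45 and the GINS complex to MCM, after which polymerase alpha-primase starts strands that polymerases epsilon and delta extend on the clamp PCNA. Many of the genes are transcribed in a wave at the transition from G1 to S phase, under the factor MBF, which binds the MluI cell cycle box (MCB).

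The MCB, ACGCGT, is its own reverse complement and was searched for in the 300 bases before each start codon of the R64 genome. It was present in 25 of the 51 members (49%), against 219 of 6663 protein-coding genes with such a window (3.29%), and 8 members held more than 1 copy. The core ACGCG on either strand, which every MCB contains, was present in 38 members (74.5%) and in 14.9% of the windows. A match describes these letters only and is not evidence of binding. The sites of the 5 members with a motif that passed the test in at least 1 of the 2 comparisons follow, each on the strand of its gene with the motif in capitals.
POL30: ccaaaacgcgaaACGCGTaacttttttttt
POL31: acgattaatcagACGCGTctgattaatttc
CSM3: aataataaactgACGCGTaacaagatcaat
DBF4: ttttttttgcaaACGCGTcttaggtcgatc
RFA2: gccatatacgaaACGCGTtaggaaACGCGT
The POL30 site lies at chrII:425944-425973 on the minus strand, 195 bases before the start codon, and the POL31 site at chrX:449083-449112 on the plus strand, 107 bases before it. That of CSM3 lies at chrXIII:366897-366926 on the plus strand, 72 bases before the start codon. That of DBF4 lies at chrIV:560848-560877 on the minus strand, 240 bases before it. The RFA2 window, chrXIV:48155-48184 on the plus strand, holds 2 motifs, 120 and 108 bases before the start codon. CDC7, PSF2 and RFC1, which also passed the test, had no MCB in this window.

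Sequencing depth differed less than the number of molecules behind it. Totals were 15879779 to 23644299 counts in the low libraries and 22167864 to 27752702 in the high ones. The number of counts that each sampled RNA molecule gave was estimated from how many genes stood at 0 counts, given their level in the other libraries of the same group and Poisson sampling. It was 30.04 to 116 in the low libraries and 1.392 to 3.415 in the high ones. CPM are here counts scaled to a common library size with TMM factors. For the molecules the scale was the raw library total, without these factors. On that scale 1 estimated molecule stood for 1.69, 3.63 and 1.58 CPM in L1_2609, L2_2709 and L_2909. It stood for 7.31 CPM in L1_2709, 2.01 CPM in L2_2609 and 0.0504 to 0.154 CPM in the high libraries. The members' median CPM over these values gives about 2.89 to 16.1 molecules per gene in a low library and 201 to 604 in a high library.

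Members at 0 counts were found in the low libraries alone. They numbered 2, 3 and 1 in L1_2609, L2_2709 and L_2909, 10 in L1_2709 and 3 in L2_2609, while each high library had counts for all 51. Among the 4205 tested genes in the same range of high CPM (2.21 to 124), 1.28%, 4.66%, 1.38%, 10.2% and 2.35% stood at 0 in these 5 low libraries, against 3.92%, 5.88%, 1.96%, 19.6% and 5.88% of the members. The bar chart of molecule estimates shows both quantities side by side. A fit on counts scaled to estimated molecules is given with the calls.

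**Figure D1:**
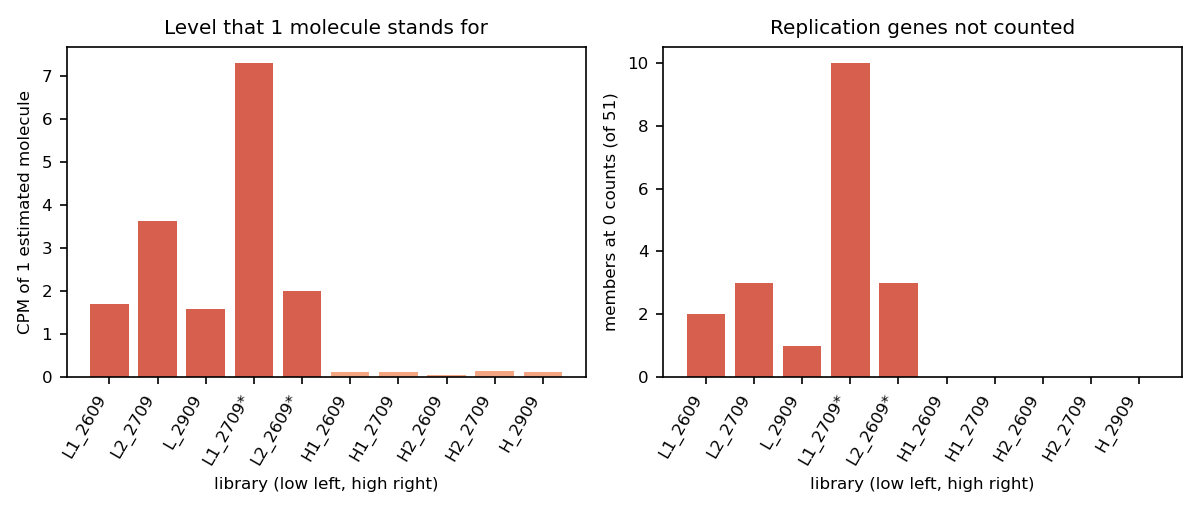
Left, the CPM on raw library totals that 1 estimated RNA molecule stood for in each library, and right, the number of the 51 replication genes with 0 counts. Dark bars are low libraries, light bars high libraries, and an asterisk marks the 2 low libraries left out of the 8-library comparison. L1_2709 has the highest bar in both panels, 7.31 CPM and 10 genes, and no high library has a member at 0.

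Low was compared with high gene by gene in edgeR's quasi-likelihood test over the whole table, and a gene is termed called where its p-value, adjusted by Benjamini-Hochberg over all genes tested, was under 0.05. Fold changes are log2 of low over high. In the 8 libraries 7 of 51 members were called lower (13.7%), against 4.33% of 6492 genes tested. These were RFC1, POL30, CSM3, DBF4, POL31, CDC7 and PSF2. In all 10 libraries 4 members were called lower (7.84%), against 2.84% of 6374 genes, namely RFC1, POL30, POL31 and RFA2. Thus RFC1, POL30 and POL31 were called in both comparisons. POL30, at 0 counts in every low library, passed the low-count filter through the high libraries alone, so it could be called only as lower.

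The members' log2 fold changes were mostly negative and moderate. In the 8 libraries their median was -0.52, against -0.02 over all genes tested, and 44 of 51 (86.3%) were negative, against 52.9%. In all 10 libraries the median was -0.51, against -0.015 over all genes, and 45 of 51 were negative. All low libraries stood below all high libraries for 19 of 51 members in the 8 libraries (37.3%), against 10.7% of genes, and for 8 members in all 10 libraries (15.7%), against 6.15%. These 8 were DPB3, POL31, POL32, POL30, RFC1, RFA2, CSM3 and TOP2. In no member did all 3 low libraries used lie above all high libraries, which held for 310 of 6492 genes tested.

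**Figure D2:**
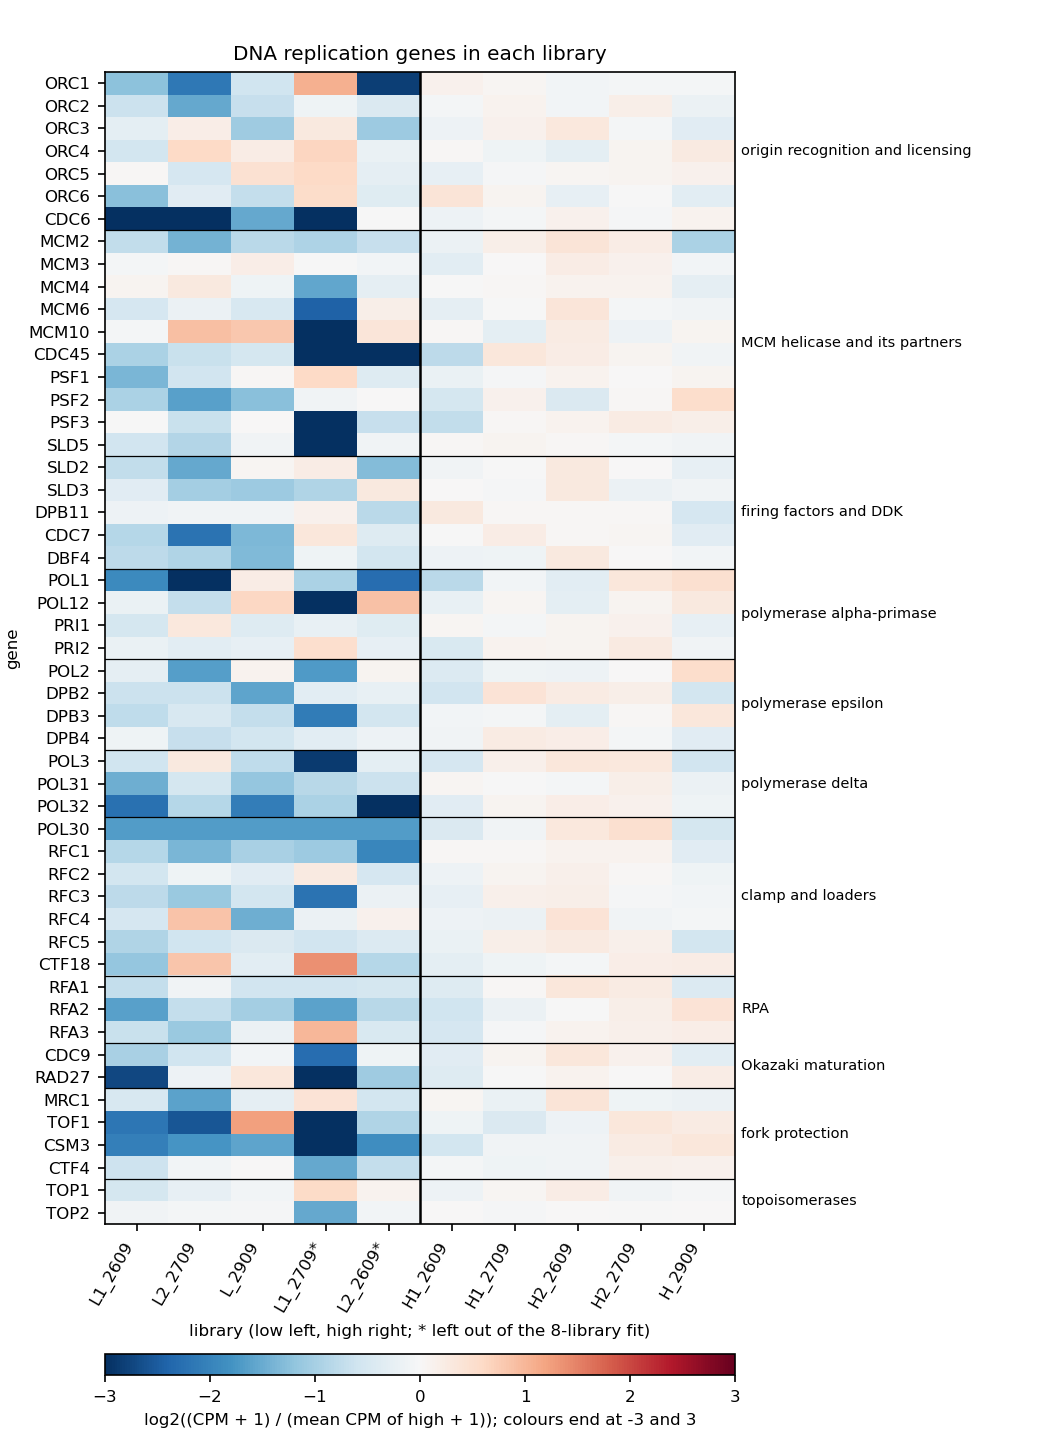
Heat map of the 51 replication genes (one per line, grouped by role) in the 10 libraries (low left, high right), coloured by log2 of CPM plus 1 over the mean CPM of high plus 1, with colours ending at -3 and 3. Blue prevails on the low side, and the darkest cells are members at or near 0, most of them in L1_2709.

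Summed over the 51 genes, the level was 1300, 1481 and 1515 CPM in L1_2609, L2_2709 and L_2909 and 1474 and 1466 CPM in L1_2709 and L2_2609, against 1718, 1958, 2112, 2044 and 1791 CPM in H1_2609, H1_2709, H2_2609, H2_2709 and H_2909. The 2 groups of sums did not overlap, with means of 1447 ± 84.4 CPM in low (SD, n = 5) and 1925 ± 167 CPM in high (SD, n = 5). Single members scattered more in low: the median SD of log2(CPM + 1) was 0.72 over the 5 low libraries, 0.45 over the 3 used and 0.23 over the high ones. Over the 4205 genes in the same range it was 0.50, 0.37 and 0.24.

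The calls depend on libraries and pairing. Low and high libraries share replicate codes. With the code as a replicate block 0 members were called in the 8 libraries, against 1.22% of genes. An unadjusted p under 0.05 was found there for 14 of 51 members and for 861 of 6492 genes. The 7 genes above had adjusted p-values of 0.099 to 0.34. In that fit H2_2609 and H1_2709 lack a partner. With the block in all 10 libraries 3 members were called (RFC1, POL31 and RFA2, 5.88%), against 2.75% of genes. DESeq2 called 16 of the 50 members to which it gave an adjusted p (32%), against 7.21% of genes, all lower. Leaving out 1 library of the 8 gave 3 to 8 called members, with 4 without H1_2709, 4 without H2_2609 and 3 without H2_2709; RFC1, DBF4 and POL30 were called each time. On counts scaled to estimated molecules 6 members were called lower in the 8 libraries (CDC6, CDC7, DBF4, POL31, POL32 and RFC1, 11.8%), against 2.5% of genes, and POL30, PSF2 and CSM3 were missed, with adjusted p-values of 0.31, 0.15 and 0.067. The same scaling in all 10 called 6 (CSM3, DBF4, POL31, POL32, RFA2 and RFC1), against 3.72% of genes.

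**Figure D3:**
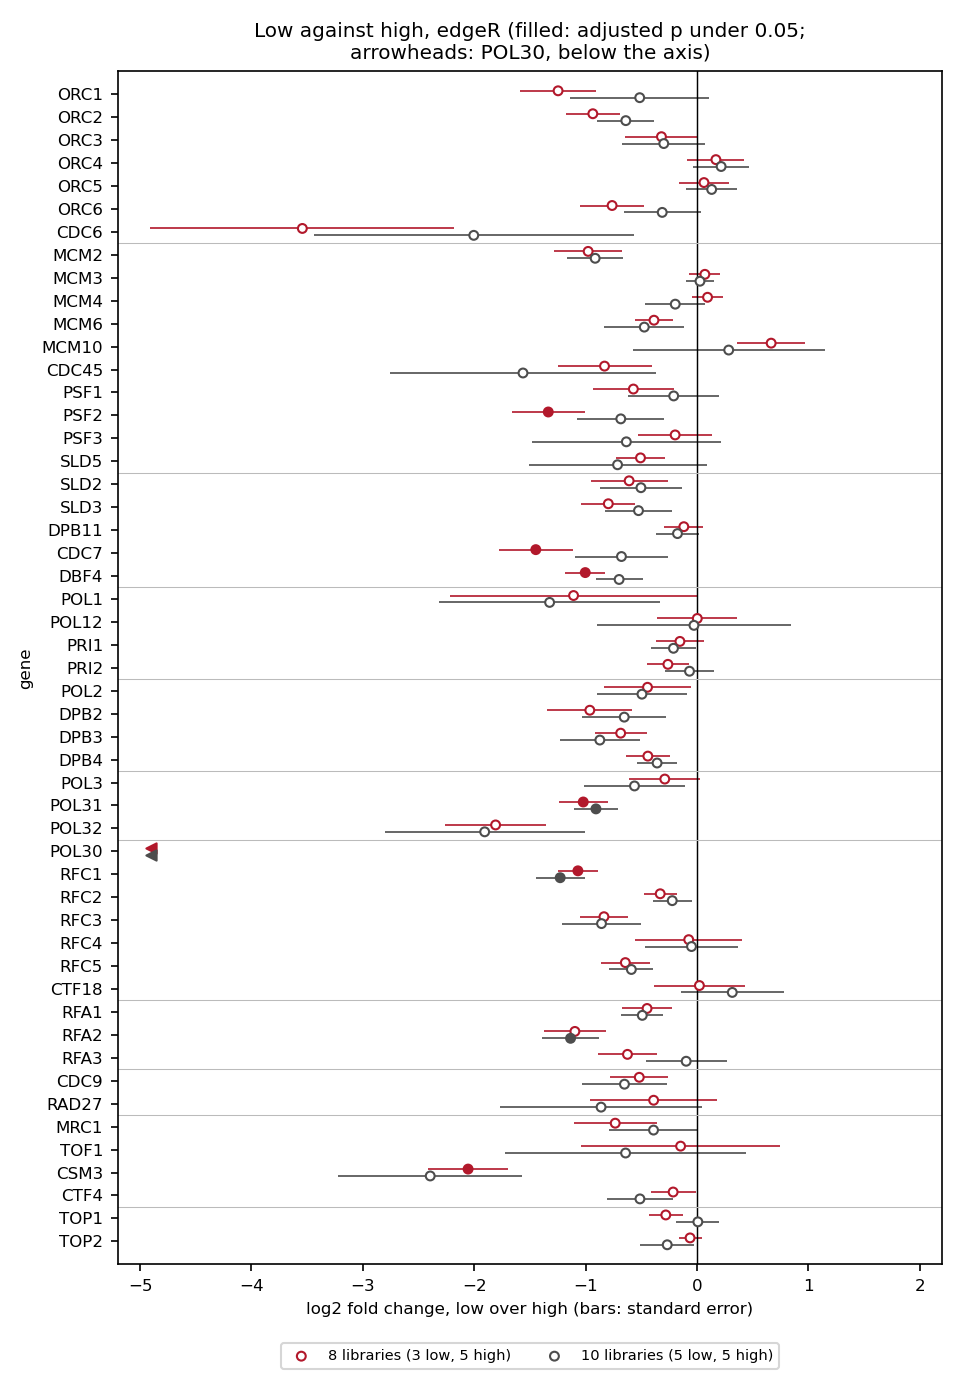
Log2 fold change of low over high with its standard error for each replication gene, in the 8 libraries (red) and in all 10 (grey); filled symbols have an adjusted p under 0.05 in edgeR, and arrowheads mark POL30, whose fitted value lies beyond the axis. Most symbols lie left of 0, and RFC1, POL31 and POL30 are filled in both comparisons.

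The origin recognition and licensing genes encode the 6 ORC subunits and the MCM loader Cdc6, and no member was called in either comparison. In the 8 libraries 4 of 7 had an unadjusted p under 0.05, as did 23 of all 51 members and 1143 of 6492 genes tested. DESeq2 called 3 (ORC1, ORC2 and CDC6). The group's median log2 fold change was -0.76, from -3.54 for CDC6 to 0.17 for ORC4, and -0.31 in all 10 libraries. ORC4 and ORC5, the members of the group with the highest FPKM (fragments scaled to gene length and library size), did not pass the test. ORC4, a subunit with an ATPase fold, had 23.0, 51.9 and 40.2 CPM in the low libraries used and 53.8 and 29.5 CPM in L1_2709 and L2_2609, against 34.9, 31.0, 27.8, 35.9 and 41.0 CPM in high. ORC5, its neighbour in the complex, had 39.4, 26.9, 53.3, 58.7 and 31.4 CPM in low, in the same order, against 31.9, 37.5, 40.0, 40.4 and 41.8 CPM in high. Both genes overlapped between the groups, with log2 fold changes of 0.17 ± 0.26 and 0.06 ± 0.22 (SE) and adjusted p-values of 0.81 and 0.92.

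CDC6 was the lowest gene of the group per length, at 4.70 ± 0.49 FPKM in high (SD, n = 5). It had 0, 0 and 1.89 CPM in L1_2609, L2_2709 and L_2909 and 0 and 7.24 CPM in L1_2709 and L2_2609, against 6.49, 7.04, 8.15, 7.12 and 8.07 CPM in high. L2_2609 lay within the range of high and the other low libraries below it. The adjusted p was 0.20 in the 8 libraries and 0.60 in all 10, and of the gene's 1542 bases 605 overlap YJL195C on the opposite strand.

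Of the MCM helicase and its partners, MCM3 and MCM4 had the highest FPKM in high (41.9 ± 5.92 and 39.7 ± 3.93, SD, n = 5) and did not pass the test. MCM3, a helicase subunit, had 119.8, 127, 143, 123 and 118 CPM in low, in the order L1_2609, L2_2709, L_2909, L1_2709 and L2_2609, against 100.1, 125, 144, 135 and 116 CPM in H1_2609, H1_2709, H2_2609, H2_2709 and H_2909. The ranges coincide, and the log2 fold change was 0.07 ± 0.14 (SE, adjusted p = 0.86). MCM4, another subunit of the same ring, was at 119.5, 139.6 and 103 CPM in the 3 low libraries used, against 94.4 to 122 CPM in high, but at 37.6 CPM in L1_2709 and 93.8 CPM in L2_2609. Its log2 fold change was 0.09 ± 0.14 in the 8 libraries (SE, adjusted p = 0.80) and -0.19 ± 0.27 in all 10 (SE, adjusted p = 0.84). It was 0.012 with L1_2709 alone left out of the 10, -0.179 with L2_2609 alone left out, and -0.019 without L2_2709 of the 8.

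PSF2, a subunit of the GINS complex that joins Cdc45 on MCM, was the one gene of this group of 10 called in the 8 libraries. It had 12.0, 7.09 and 9.46 CPM in the low libraries used, against 16.5, 26.4, 17.7, 24.6 and 35.0 CPM in high, with no overlap. The left-out low libraries, at 22.2 and 24.2 CPM, fell within the range of high. The log2 fold change was -1.33 ± 0.33 (SE, adjusted p = 0.048) in the 8 libraries and -0.68 ± 0.39 (SE, adjusted p = 0.47) in all 10. With 1 library of the 8 left out, PSF2 was called without L1_2609 or H1_2609 and missed without any other, with adjusted p-values up to 0.13. Of the other GINS genes, PSF1, PSF3 and SLD5, none was called, at log2 fold changes of -0.57, -0.20 and -0.51 in the 8 libraries, with 1 (SLD5) at an unadjusted p under 0.05 and none called by DESeq2. The group's median was -0.45, and MCM10, which binds the helicase, had its highest value at 0.67 (adjusted p = 0.30). Of the group's 10 genes, 4 had an unadjusted p under 0.05, and DESeq2 called PSF2 and MCM2. MCM2 stood at -0.98 (adjusted p = 0.12), MCM6 at -0.39 (adjusted p = 0.28) and CDC45 at -0.83 (adjusted p = 0.35). In all 10 libraries they stood at -0.91, -0.47 and -1.56, none of them called. MCM5, a further helicase subunit, is among the other replication genes below.

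The firing factors and DDK all had negative log2 fold changes, with a median of -0.80, and both DDK subunits were called in the 8 libraries. CDC7, the kinase that phosphorylates MCM, had 16.0, 5.60 and 11.1 CPM in the low libraries used, against 29.6, 35.0, 30.4, 31.0 and 23.3 CPM in high. The left-out L1_2709 and L2_2609 had 37.9 and 22.8 CPM, the first of them above every high library. Its log2 fold change was -1.45 ± 0.33 (SE, adjusted p = 0.038) in the 8 libraries and -0.68 ± 0.42 (SE, adjusted p = 0.51) in all 10. It was called without L1_2609, L2_2709 or H_2909 and missed without any other of the 8, with adjusted p-values up to 0.10.

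DBF4, the regulatory subunit of DDK that varies over the cell cycle as a protein, had 42.6, 39.5 and 28.9 CPM in the low libraries used and 67.5 and 50.4 CPM in L1_2709 and L2_2609, against 66.2, 68.1, 91.3, 75.4 and 70.6 CPM in high. L1_2709 alone reached the range of high. The log2 fold change was -1.003 ± 0.178 (SE, adjusted p = 0.015) in the 8 libraries and -0.70 ± 0.21 (SE, adjusted p = 0.11) in all 10. DPB11, a scaffold that brings the phosphorylated firing factors together, did not pass, at 56.8, 59.0 and 58.8 CPM in the low libraries used, 69.5 and 35.9 CPM in L1_2709 and L2_2609, and 77.5, 64.6, 65.3, 64.7 and 44.6 CPM in high. Its values in the 3 low libraries lay within the range of high, with a log2 fold change of -0.12 ± 0.17 (SE, adjusted p = 0.81).

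The medians given for the polymerases rest on 3 or 4 genes each, and no test compared them. Polymerase alpha-primase had a median log2 fold change of -0.21, with 0 of 4 members called, 0 at an unadjusted p under 0.05 and 0 by DESeq2. The primase genes PRI1, which encodes the catalytic subunit, and PRI2 were its best counted members. PRI1 had 27.0, 48.9, 29.5, 33.1 and 30.2 CPM in low and 40.9, 37.4, 41.3, 43.0 and 32.9 CPM in high, a log2 fold change of -0.15 ± 0.22 (SE, adjusted p = 0.80). PRI2 had 35.0, 32.2, 34.1, 58.4 and 33.9 CPM in low and 29.4, 43.5, 42.8, 49.4 and 37.7 CPM in high, a log2 fold change of -0.26 ± 0.19 (SE, adjusted p = 0.54). In both genes the groups overlap. POL1, the catalytic subunit of polymerase alpha, was the lowest member per length, at 2.53 ± 0.94 FPKM in high (SD, n = 5). It was at 0 in L2_2709, and its log2 fold change was -1.11 ± 1.11 (SE, adjusted p = 0.69), or -2.33 with the replicate block (adjusted p = 0.58).

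Polymerase epsilon, which extends the leading strand, had negative values in all 4 genes and a median of -0.56. No gene was called, while 3 of 4 had an unadjusted p under 0.05, against 1143 of 6492 genes tested, and DESeq2 called 1, DPB3. DPB3 and DPB4 encode small histone-fold subunits. DPB3 had 12.2, 15.2, 12.6, 4.26 and 14.3 CPM in low, against 20.2, 20.5, 17.3, 22.2 and 27.2 CPM in high, with no overlap. Its log2 fold change was -0.69 ± 0.23 (SE, adjusted p = 0.15) in the 8 libraries, and 53.3% of its bases overlap YBR277C. DPB4 had 45.8, 31.1, 34.4, 40.4 and 45.2 CPM in low, against 46.8, 59.6, 58.0, 48.7 and 39.5 CPM in high, overlapping only through H_2909, with a log2 fold change of -0.44 ± 0.19 (SE, adjusted p = 0.28).

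Polymerase delta, which extends the lagging strand, had a median of -1.02 over 3 genes. POL31, its essential second subunit, had 19.1, 37.1 and 23.6 CPM in the low libraries used and 30.1 and 34.1 CPM in L1_2709 and L2_2609, against 55.9, 53.6, 51.7, 60.9 and 47.7 CPM in high. The groups did not overlap. The log2 fold change was -1.02 ± 0.22 (SE, adjusted p = 0.031) in the 8 libraries and -0.91 ± 0.20 (SE, adjusted p = 0.028) in all 10. Without L2_2709 or H_2909 POL31 was called, and without any other of the 8 it was missed, with adjusted p-values up to 0.086.

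POL32, the non-essential subunit, also separated the groups but did not pass the test. It had 2.13, 7.18, 2.56, 6.66 and 0 CPM in low, against 10.8, 14.6, 16.0, 15.3 and 12.7 CPM in high, a log2 fold change of -1.81 ± 0.46 (SE, adjusted p = 0.053) in the 8 libraries. Its low values are those of a few estimated molecules per library. POL3, the catalytic subunit, had a log2 fold change of -0.29 ± 0.32 (SE, adjusted p = 0.73).

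RFC1, the large subunit of the clamp loader RFC, had the smallest adjusted p of the set in both comparisons. It had 35.5, 24.7 and 32.7 CPM in the low libraries used and 30.1 and 15.9 CPM in L1_2709 and L2_2609, against 67.0, 66.8, 70.4, 70.0 and 51.7 CPM in high. The highest low library stood clear of the lowest high one. The log2 fold change was -1.07 ± 0.18 (SE, adjusted p = 0.011) in the 8 libraries and -1.23 ± 0.22 (SE, adjusted p = 0.009) in all 10. RFC1 was called in 26 of 27 fits and missed only with the replicate block in the 8 libraries (adjusted p = 0.11).

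The smaller RFC subunits, which form the ring with Rfc1, did not pass the test. RFC2 had 41.6, 55.5, 48.4, 73.3 and 42.9 CPM in low, against 54.4, 64.3, 67.6, 63.0 and 56.0 CPM in high, a log2 fold change of -0.33 ± 0.15 (SE, adjusted p = 0.28). RFC5 had 25.0, 30.9, 34.8, 31.3 and 35.1 CPM in low, against 41.3, 53.4, 57.0, 52.8 and 32.2 CPM in high, a log2 fold change of -0.64 ± 0.22 (SE, adjusted p = 0.15). In RFC5 the groups overlapped through H_2909 and in RFC2 through L2_2709 and L1_2709. RFC3 had a log2 fold change of -0.84 (adjusted p = 0.056, called by DESeq2), RFC4 of -0.07 and CTF18, the large subunit of an alternative loader, of 0.02.

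POL30, which encodes PCNA, was the one member with at most 3 counts in every low library (1.96% of members), against 1.66% of genes over the 3 low libraries used and 1.05% over all 5. The members' share is that of 1 gene and lies near those of all genes. Such genes passed the low-count filter through the high libraries alone, so they could be called only as lower. POL30 had 0 counts in all 5 low libraries, against 1.38, 1.98, 3.01, 3.47 and 1.22 CPM in H1_2609, H1_2709, H2_2609, H2_2709 and H_2909. Taking 3 counts in each low library as a floor, it was at least 15.5-fold lower in the 3 low libraries used and at least 14.7-fold lower in all 5, where floors cover counting error only. The adjusted p was 0.012 in the 8 libraries and 0.018 in all 10, and 0.34 and 0.18 with the replicate block. On counts scaled to estimated molecules it was 0.31 in the 8 libraries, and POL30 did not pass the low-count filter of that fit in all 10. The fold bound counts reads and not molecules. In the 3 low libraries used 1 estimated molecule stood on average for 2.35 CPM, here with TMM factors, and the mean of high, 2.21 CPM, is 0.939 of that. A level equal to that of high would thus be about 1 molecule per low library.

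POL30 was among the members with the lowest counts per length. At 2.80 ± 1.26 FPKM in high (SD, n = 5) it ranked 49 of the 51 members, and RFC1, of the loader that places PCNA on DNA, had 24.8 ± 2.87 FPKM. Of its 777 bases at chrII:424990-425766, 584 (75.2%) overlap YBR089W on the opposite strand, which itself had at most 0.0663 CPM in any library. Neither the counting tool nor the use of strand is given in the sources used here. Protein-coding genes that overlap another gene over 50% or more of their length had a median of 0.580 FPKM in high (645 genes), those with less overlap 26.6 FPKM (718 genes) and those with none 55.6 FPKM (5330 genes). The part of the overlap in the count of POL30 was not tested. The other members that share bases with another gene are CDC6, MCM3, CDC7, DBF4, DPB3, RFC1 and CDC9, over 5.56% to 53.3% of their length, and their counts are uncertain to that extent.

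RPA, the trimer that coats single-stranded DNA, had RFA3 and RFA2 at 85.7 ± 16.2 and 70.5 ± 18.6 FPKM in high (SD, n = 5), ranks 1 and 3 of the 51 members. RFA2, the middle subunit, had 18.4, 35.6 and 28.5 CPM in the low libraries used and 18.5 and 32.8 CPM in L1_2709 and L2_2609, against 38.6, 52.0, 58.2, 66.5 and 78.8 CPM in high. No low library reached the lowest high one. The log2 fold change was -1.10 ± 0.28 (SE, adjusted p = 0.055) in the 8 libraries and -1.13 ± 0.26 (SE, adjusted p = 0.030) in all 10, and with the replicate block the adjusted p was 0.062 and 0.012.

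RFA3, the small subunit, had 19.7, 14.4, 28.2, 64.6 and 23.3 CPM in low, against 22.3, 31.1, 34.5, 35.9 and 36.7 CPM in high. L1_2709 stood above all other libraries, and the log2 fold change was -0.62 ± 0.27 (SE, adjusted p = 0.26) in the 8 libraries and -0.10 ± 0.37 (SE, adjusted p = 0.95) in all 10. RFA1, the large subunit, had a log2 fold change of -0.45 ± 0.23 (SE, adjusted p = 0.35).

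In Okazaki fragment maturation neither gene was called, with 0 at an unadjusted p under 0.05 and 0 by DESeq2. CDC9, the DNA ligase, had 16.3, 21.3, 30.9, 5.88 and 29.6 CPM in low, against 25.8, 34.6, 41.6, 35.8 and 26.0 CPM in high, a log2 fold change of -0.52 ± 0.26 (SE, adjusted p = 0.35). RAD27, the flap endonuclease, had 2.70, 21.1, 29.8, 0 and 10.7 CPM in low, against 17.8, 23.2, 25.2, 23.6 and 27.4 CPM in high. The low libraries of RAD27 spread across and beyond the range of high, and its log2 fold change of -0.39 ± 0.57 (SE, adjusted p = 0.81) was 0.12 without L1_2609.

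Among the fork protection genes CSM3, a partner of Tof1 at paused forks, had the largest called difference after POL30. It had 2.70, 3.45 and 4.09 CPM in the low libraries used and 0 and 3.20 CPM in L1_2709 and L2_2609, against 9.40, 13.1, 13.2, 17.0 and 18.4 CPM in high. The groups do not overlap, and the log2 fold change was -2.05 ± 0.36 (SE, adjusted p = 0.014) in the 8 libraries. With all 10 it was -2.40 ± 0.82 (SE, adjusted p = 0.17), and without L1_2709, where the gene was at 0, CSM3 was called again. Of the 8 libraries, leaving out H2_2709 alone lost the call (adjusted p = 0.053). As in POL32, the low values of CSM3 are those of a few estimated molecules per library. On counts scaled to estimated molecules the adjusted p of CSM3 was 0.067 in the 8 libraries and 0.015 in all 10. With the replicate block it was 0.16 and 0.19.

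CTF4, which links the helicase to polymerase alpha, had 19.1, 27.7, 29.6, 9.56 and 17.6 CPM in low, against 28.2, 27.1, 27.4, 32.8 and 32.5 CPM in high, with a log2 fold change of -0.21 ± 0.20 (SE, adjusted p = 0.66). Its groups overlap. The checkpoint mediator MRC1, at -0.73 (adjusted p = 0.35), had its 3 low libraries used below every high library. The left-out L1_2709, at 21.1 CPM, stood above every high library of MRC1. TOF1, the partner of Csm3, had 1.57, 0.958 and 25.9 CPM in the low libraries used and 0 and 5.15 CPM in L1_2709 and L2_2609, against 9.63, 7.62, 9.34, 13.6 and 12.6 CPM in high. L_2909 alone of the low libraries lay above the lowest high library. With it the log2 fold change was -0.15 ± 0.89 (SE, adjusted p = 0.96) in the 8 libraries and -1.92 ± 1.12 with the replicate block (SE, adjusted p = 0.52), and without it TOF1 was called lower, at -3.06 ± 0.45 (SE, adjusted p = 0.0098).

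The topoisomerases, which remove the supercoils ahead of and behind the fork, had a median log2 fold change of -0.17. TOP1 had 50.8, 61.8, 69.5, 110.0 and 79.2 CPM in low, against 66.1, 77.1, 85.8, 68.7 and 71.6 CPM in high, and its log2 fold change was -0.28 ± 0.15 in the 8 libraries (SE, adjusted p = 0.38) and 0.01 in all 10. TOP2 had 86.8, 89.6, 90.6, 31.3 and 87.9 CPM in low, against 94.0, 90.9, 94.6, 92.6 and 93.6 CPM in high. The groups of TOP2 did not overlap, yet they differed by so little outside L1_2709 that the log2 fold change was -0.06 ± 0.10 (SE, adjusted p = 0.83).

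**Figure D4:**
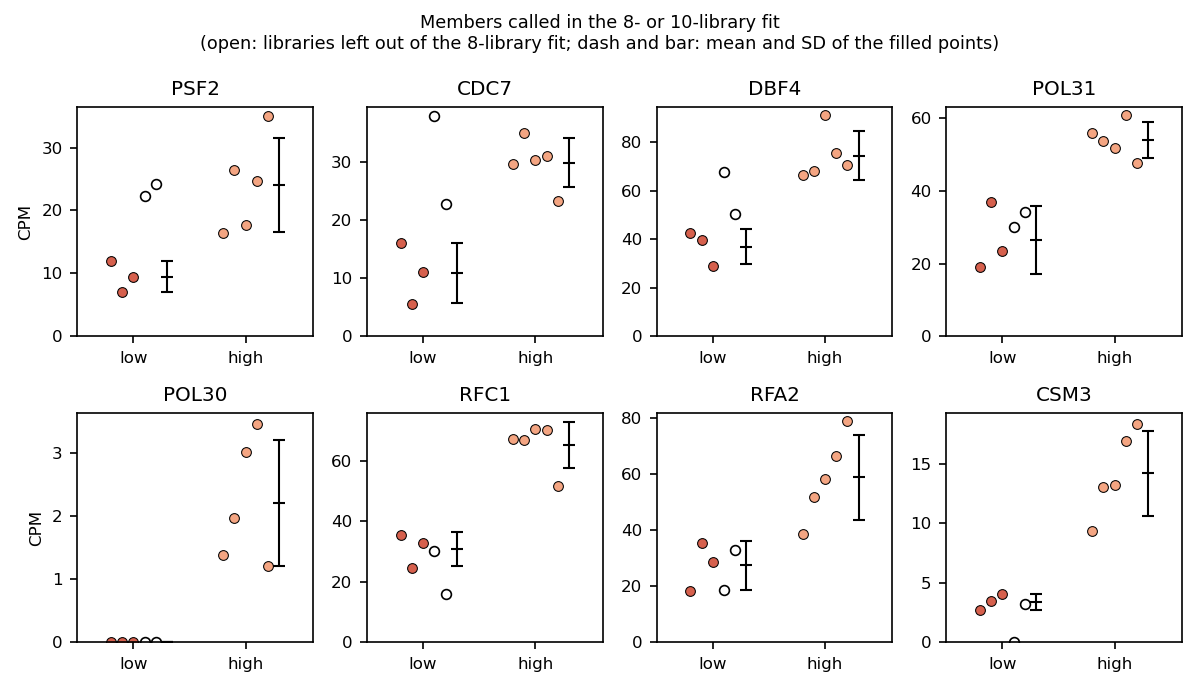
CPM of the 8 replication genes called in the 8- or the 10-library comparison, low left and high right in each panel; filled points are the libraries of the 8-library comparison with their mean and SD beside them, open points the left-out L1_2709 and L2_2609. In PSF2 the open points lie within the range of high and in CDC7 just below and above it, while in POL31, RFC1, RFA2 and CSM3 they lie below every high library.

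The difference was also read within the 5 pairs of low and high libraries that share a replicate code. The members' median difference in log2(CPM + 1), low minus high, was -0.55 for L1_2609, -0.75 for L2_2709, -0.21 for L_2909, -0.81 for L1_2709 and -0.48 for L2_2609, each against its partner in high. Over all genes it was -0.03 to -0.11. The pair of L_2909 and H_2909 had the smallest difference and 38 of 51 members lower in low, while the other pairs had 36 to 45. Lower in low in all 5 pairs were 20 of 51 members (39.2%), against 13.6% of genes, and higher in all 5 were 0 members, against 7.64%.

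Members with and without an MCB had similar changes in the 8 libraries. The 25 with the motif had a median log2 fold change of -0.52 with 4 called, and the 26 without had -0.54 with 3 called. With all 10 libraries the medians were -0.64 with the motif and -0.34 without. Over all tested genes with a promoter window, members included, the 215 with the motif had a median of -0.29 in the 8 libraries. Of them 9.3% were called lower, while the 5960 without had -0.02 and 4.04%. The 25 members with the motif, 4 of them called, are among the 215. In all 10 libraries 5.12% with the motif and 2.8% without were called lower.

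**Figure D5:**
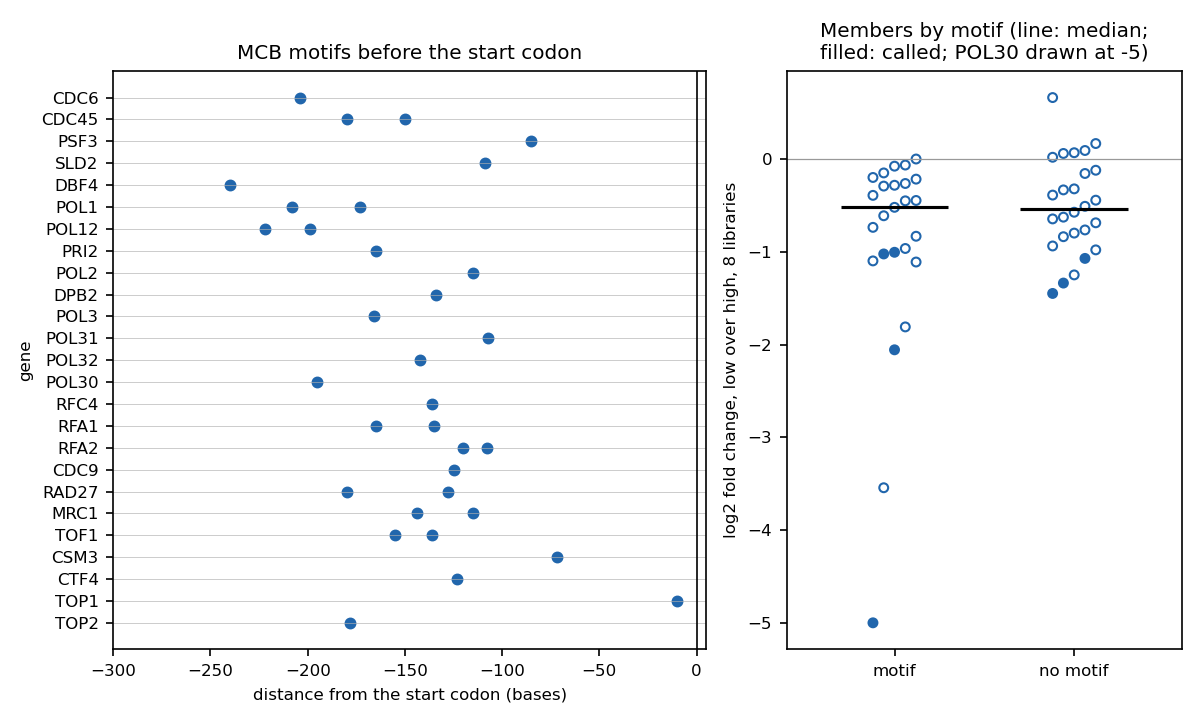
Left, the position of each MCB motif in bases before the start codon, for the 25 replication genes that hold one in 300 bases; right, log2 fold changes of low over high in the 8 libraries for members with (25) and without (26) a motif, with lines at the medians of -0.52 and -0.54 and filled symbols for called genes. POL30 is drawn at -5, above its fitted value.

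Of 31 other replication genes, a list of further helicase, loading, chromatin assembly, nucleotide supply and checkpoint genes, 25 had negative log2 fold changes (80.6%, against 52.9% of all genes tested), with a median of -0.44. In the 8 libraries 1 of the 31 was called, no larger a share than the 4.33% of all genes called lower. This was RTT109, which acetylates newly made histone H3, at 7.72 ± 2.63 CPM in low (SD, n = 3) and 22.7 ± 3.51 CPM in high (SD, n = 5), a log2 fold change of -1.55 (adjusted p = 0.022). In all 10 libraries it was not called (adjusted p = 0.16), and MCM5, a helicase subunit, at -1.16 (adjusted p = 0.032), and CAC2, of chromatin assembly factor 1, at -0.73 (adjusted p = 0.040), were. These are 2 of the 31, against 2.84% of all genes called lower there.

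Markers of cell state moved with the comparison. In the 8 libraries 3 of 6 daughter-cell genes were called higher in low (DSE1, DSE2 and CTS1, at log2 fold changes of 2.13, 2.50 and 2.41) and 1 was called lower (EGT2, at -1.79). Of 7 regulators of Start, the G1 cyclin gene CLN2 was called lower, at -2.58 (adjusted p = 0.0044), but not in all 10 libraries (adjusted p = 0.095), and of 8 histone genes, made in S phase, 5 were called lower (HTA2, HTB1, HTB2, HHF2 and HHT2, at -0.77 to -2.20). With the replicate block HTA2 alone of these 5 was called (adjusted p = 0.012, the others 0.053 to 0.17), and in all 10 libraries the other 4 were called and HTA2 was not (adjusted p = 0.053). The summed level of the 8 histone genes was 2928 to 3390 CPM in low and 3668 to 4982 CPM in high, and that of the 7 Start regulators 309 to 462 CPM in low and 413 to 524 CPM in high. The 6 daughter-cell genes summed to 1540 to 2703 CPM in low and 563 to 936 CPM in high. The part of such differences in cell cycle position or daughter share in the replication genes' values was not tested. Transcripts of mating type a cells were present in every library (summed 657 to 1426 CPM in low and 334 to 1168 CPM in high), and those of alpha cells stood at 9.31 to 23.5 CPM in low and 13.1 to 20.2 CPM in high.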

How the data were processed

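The authors sequenced poly(A) RNA of sorted cells with paired 150-base reads, aligned it with HISAT2 (named in the submitters' processing notes) to the genome and annotation of an Ensembl release that the methods name, and deposited raw counts and FPKM values per gene. The counting tool and its use of strand are not given in the sources used here. Coordinates are those of the deposited tables, and 6036 of the 6048 identifiers shared with the RefSeq R64 annotation have the same start and end there. Promoter windows were read from the R64 genome, where 6660 of 6664 protein-coding genes have an ATG at the start that the tables give.

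The deposited counts were tested with edgeR 4.0.16 in R 4.3.3 (filterByExpr, TMM, quasi-likelihood test, Benjamini-Hochberg over all genes tested, threshold 0.05), low against high with no covariate, in the 8 libraries used by the study and in all 10. The biological coefficient of variation was 0.355 and 0.458. SE is the log2 fold change over the root of F. CPM used TMM factors over all 10 libraries. FPKM served to compare levels between genes. Alternatives were DESeq2 1.42.0, voom and log2(FPKM + 1) or log2(FPKM + 0.1) in limma 3.58.1, other filters and scalings, blocks, protein-coding genes only, counts scaled to estimated molecules, other sets of libraries and leaving out single libraries.

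Same-numbered low and high libraries were treated as pairs in the replicate block fits and the pair differences, and not in the 2 main fits. The reason was that deviations from the group means over 4373 genes correlated within the 3 pairs of the 8 libraries. There r was 0.268, 0.102 and 0.296, all above the limit of 0.1, the second barely. In that second pair L2_2709 correlated best with H1_2609 and not with its partner H2_2709, in the 8 and in the 10 libraries. Over 10 libraries the 5 pairs had r = 0.391, 0.0205, 0.395, 0.111 and 0.603, with 1 below the limit. No 2 libraries were duplicates, the closest, H1_2709 and H2_2709, differing with chi-square over degrees of freedom at 36.4.

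The members and the gene lists were chosen with earlier results of these data known. Genes given in full are members called in either comparison, members with at most 3 counts in each low library used, and the 2 of each role group with the highest FPKM in high. Of the other lists those called are named. CDC6, POL1, GINS genes and other members outside this rule were named after their values were seen. No test was made over the members as a set. Flow cytometry, microscopy and single-cell data were not analysed here.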

Additional observations from a re-analysis of the deposited data

Results flagged for a closer look

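In each group of 5 libraries the highest or lowest CPM of the named members was compared with the nearest of the others by Dixon's ratio, which by chance marks about 1 group in 20. Of 51 groups, 6 were marked, 4 of them through the low library L1_2709. L1_2709 stood alone at 58.4 CPM in PRI2, against 32.2 to 35.0 CPM in the other low libraries, and at 64.6 CPM in RFA3, against 14.4 to 28.2 CPM. It was the lowest at 4.26 CPM in DPB3, against 12.2 to 15.2 CPM, and at 31.3 CPM in TOP2, against 86.8 to 90.6 CPM. L2_2709 stood alone at 48.9 CPM in PRI1, against 27.0 to 33.1 CPM in the other low libraries. H_2909 was the lowest high library at 51.7 CPM in RFC1, against 66.8 to 70.4 CPM. The 8-library comparison does not include L1_2709.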

How the results depend on the processing

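Of 675 repeats of the named members' log2 fold changes under other settings, 593 kept direction and side of the threshold, 51 kept direction but lost the call, 17 gained one and 14 changed sign. Called members, 7 in the 8 libraries, numbered 4 in all 10, 4 in the 9 libraries without L2_2609, 11 with upper quartile factors, 16 with DESeq2, and 0 and 3 with the replicate block in the 8 and 10 libraries. All genes called, 335, became 677 with DESeq2, 97 with the block and 182 on counts scaled to estimated molecules. Other replication genes called, 1, became 2 in all 10 libraries, with upper quartile factors, on log2(FPKM + 0.1) and without L1_2709, 3 on log2(FPKM + 1), 4 on scaled counts of all 10, 8 with DESeq2, and 0 with either replicate block or without L2_2609. The members' median log2 fold change, -0.52, was -0.66 with voom, -0.67 with the block in 10 libraries and -0.70 with the name ending as block. The promoter core raised 25 members to 38. The molecule-scaled fit of all 10 and both 9-library fits were chosen after seeing the data.

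Leaving out 1 library of the 8 gave 3 to 8 called members, 0 to 3 other replication genes, 113 to 437 genes in all and a median of -0.77 to -0.50. Small changes turned sign: MCM4 was -0.19 in all 10, -0.30 with the block there, -0.12 on scaled counts and -0.18 without L2_2609, TOP1 0.008 in all 10, ORC4 -0.032 with the block, and ORC5 -0.034 with the name ending and -0.017 without L1_2709. With 1 library left out MCM4 ranged from -0.019 to 0.195, ORC4 from -0.10 to 0.43, ORC5 from -0.21 to 0.28, MCM3 from -0.009 to 0.128, PRI1 from -0.462 to 0.003 and RAD27 from -0.98 to 0.12. The causes were not tested.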
